A study of Mus musculus with 6 samples.

Results

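The 35 genes described here encode chaperones, disulfide isomerases, stress sensors, degradation factors and the protein import machinery of the endoplasmic reticulum (ER). They were chosen by name as members of that machinery, with earlier results of these data known. All 35 were found by symbol among the 55222 entries of the expression table. The study sequenced RNA of C57BL/6 mouse liver, with 2 libraries in each of 3 groups and 6 in all. Livers called normal came from mice whose labels name neither treatment. The AAV-Ctrl livers came from mice given carbon tetrachloride (CCl4), a solvent that injures hepatocytes and scars the liver, and a control adeno-associated virus. The AAV-shPhpt1 livers came from mice given CCl4 and a virus that carries a short hairpin RNA against Phpt1, a gene for a phosphatase of phosphohistidine. Per the labels, 12.5 ml/kg CCl4 in olive oil was injected into the peritoneum 2 times per week, the virus followed into a vein after 1 week of CCl4, and tissue was collected 48 h after the final dose. Neither age, sex and hairpin promoter nor the total length of treatment are stated in the labels. The labels give 5 mice for each group that received virus and do not say how many gave RNA for a library, so p-values measure the spread between these samples, which may be technical. CCl4 and virus cannot be told apart in any comparison with normal liver.

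The ER receives every secreted and membrane protein through the Sec61 channel, folds it with chaperones and disulfide isomerases, and sends failures to the cytosol for degradation. Hepatocytes carry a large ER because they secrete most plasma proteins. When unfolded protein accumulates, the sensors IRE1 (Ern1), PERK (Eif2ak3) and ATF6 start the unfolded protein response, in which cleaved ATF6 and the product of spliced Xbp1 mRNA switch on chaperone and degradation genes.

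One DNA site of that response is the ER stress element, CCAAT followed after 9 bases by CCACG, which ATF6 binds together with the factor NF-Y. It was looked for on both strands of RefSeq promoter windows (GRCm38.p6, 250 bases before to 50 after each start site), of which 29 of the 35 genes had at least 1. The element was present for 9 of these 29 genes (31.0%), and for 0.137% of all 27025 genes with a window (0.119% of all 32851 windows). The windows of the 4 genes below are shown because they are a chaperone (Hspa5), the gene with the largest fold difference of the 35 (Creld2), a ubiquitin ligase (Syvn1) and the lectin chaperone Calr. Capitals mark the element, and each sequence is read on the strand of its gene.
Hspa5, chr2:34772020-34772048, plus strand: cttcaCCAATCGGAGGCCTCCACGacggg
Creld2, chr15:88819500-88819558, plus strand: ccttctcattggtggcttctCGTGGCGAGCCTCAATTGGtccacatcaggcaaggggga
Syvn1, chr19:6046512-6046570, plus strand: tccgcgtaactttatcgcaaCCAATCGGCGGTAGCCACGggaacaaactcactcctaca
Calr, chr8:84847055-84847113, minus strand: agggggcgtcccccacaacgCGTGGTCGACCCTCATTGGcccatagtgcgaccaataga
In Hspa5 and Syvn1 the element reads in the direction of the gene, and in Creld2 and Calr in the opposite direction, so that it appears as CGTGG followed by ATTGG. Its first base lay 65 bases before the RefSeq start site in Hspa5, 126 in Creld2, 44 in Syvn1 and 162 in Calr. In the GENCODE M21 annotation, used for the gene positions given further on, Hspa5 starts upstream of its element.

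Values are read as FPKM, fragments per length of transcript and depth of library, so that levels of different genes can be set side by side. Implied library totals lay between 21488841 and 24188029 reads. Members had between 154 reads (Derl3 in normal replicate 2) and 62189 reads (Hspa5 in AAV-Ctrl replicate 2) and all 35 passed the filter on low values. Phpt1 itself had 1 to 5 reads in each of the 6 libraries, and its knockdown was not detectable at this depth. All 10 hepatocyte markers were expressed in every group, with Alb between 72940 and 129600 FPKM. Their sum was 103300 and 107100 FPKM in the normal libraries. It was lower with the control virus, 91800 and 91690, and higher with the hairpin, 151100 and 109400. Most of each sum was Alb, with 129600 and 87480 FPKM in the hairpin livers. Apoa1, Apoa2, Serpina1c and Pck1 lay below normal in both AAV-Ctrl livers, Pck1 with 379 and 368 FPKM against 1597 and 1715. Trf lay above normal there, while Alb, Ttr, Fgb, Tat and Hnf4a overlapped with it. In both hairpin livers Alb, Trf and Hnf4a lay above normal and Apoa1, Apoa2 and Pck1 below it, while Ttr, Serpina1c, Fgb and Tat overlapped.

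In normal liver P4hb (protein disulfide isomerase) and Calr (calreticulin) had the highest levels of the 35, with means of 1141 ± 118 and 1136 ± 262 FPKM (SD, n = 2), which did not differ beyond their spread. The lowest was Eif2ak3 (PERK), with 7.52 ± 2.37 FPKM. The median gene had 66.0 FPKM in normal liver, 139 in AAV-Ctrl and 110 in AAV-shPhpt1. Together the 35 genes held 0.919% and 0.773% of all FPKM in the normal libraries, 1.51% and 1.78% in AAV-Ctrl livers, and 1.32% and 1.37% in AAV-shPhpt1. Both groups given CCl4 thus lay above normal liver without overlap, and AAV-shPhpt1 below AAV-Ctrl without overlap. In bulk liver, fewer cells of a type and less RNA per cell cannot be told apart.

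**Figure D1:**
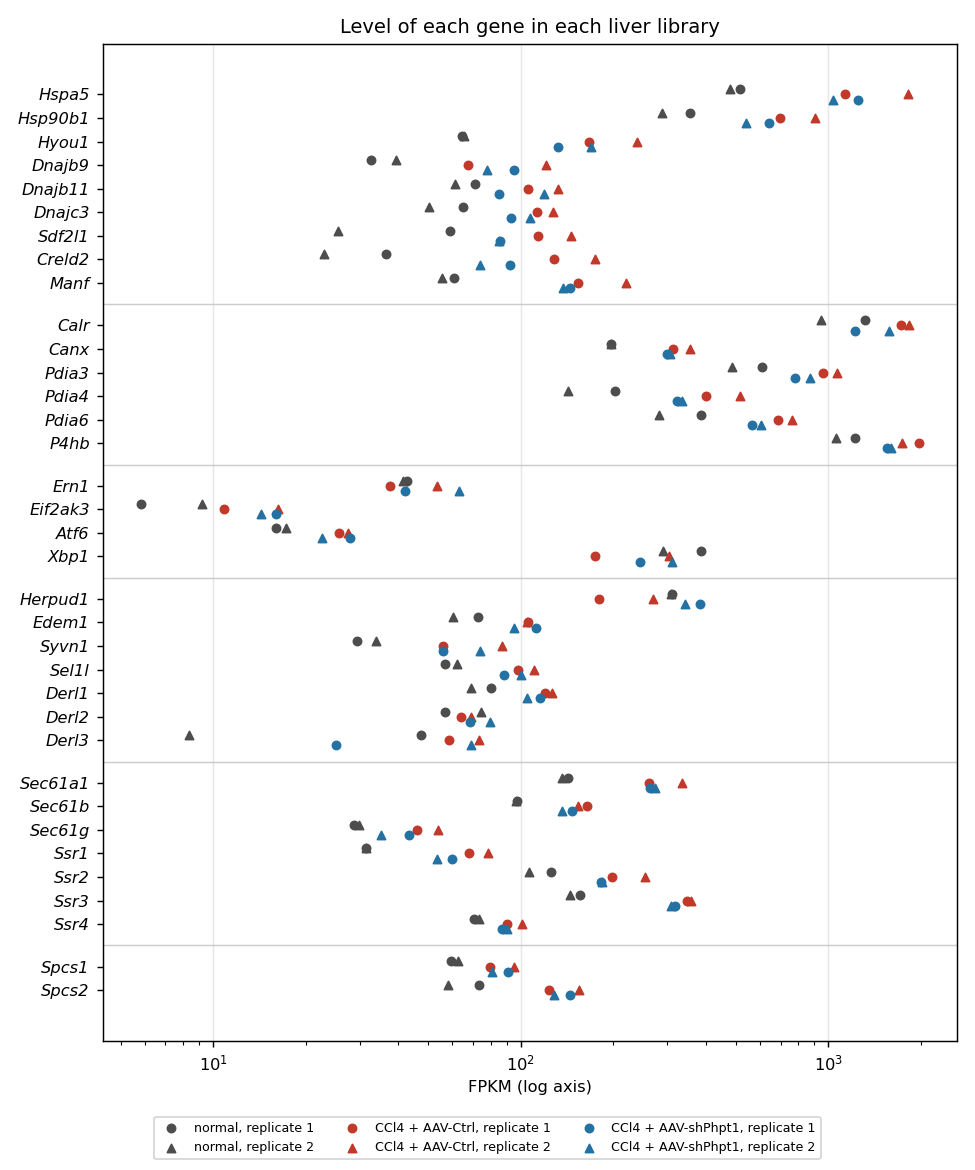
Level of each of the 35 genes in each of the 6 liver libraries, in FPKM on a log axis, with genes ordered by role (chaperones, lectin chaperones and isomerases, sensors and Xbp1, degradation, translocon, signal peptidase). Circles are replicate 1 and triangles replicate 2. Most red (AAV-Ctrl) and blue (AAV-shPhpt1) points lie right of the grey normal points. Red and blue points overlap with normal for Xbp1, Ern1 and Derl2, blue ones also for Calr and Derl3, both red points of Herpud1 lie left of normal and both blue ones right, and Derl3 is spread from 8.35 to 73.5 FPKM.

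AAV-Ctrl against normal liver addresses how these genes differ in livers given repeated CCl4, with a control virus. In these livers 26 of the 35 genes rose and 0 fell at a limma adjusted p under 0.05, where 18.2% of all 13517 genes tested were called higher and 2.28% lower. The median log2 difference of the 35 genes was 0.89, against 0.35 for all genes, and 31 of the 35 lay above that all-gene median. AAV-Ctrl lay above normal liver without overlap for 31 of them and below it for 1, where 60% of all genes lay above and 12.5% below. These calls needed all 4 libraries: without any 1 of the normal or AAV-Ctrl libraries 0 of the 35 were called, and of all genes 2 to 12 were called higher and 4 to 7 lower. After each library's median was set equal, which moved the all-gene median from 0.35 to -0.10, 5 of the 35 were called higher (Hyou1, Creld2, Manf, Ssr1 and Ssr3) and 1 lower (Herpud1), among 566 and 729 of all genes. The smallest log2 differences among the 26 were then 0.19 for Atf6, 0.21 for Edem1, 0.25 for P4hb and 0.25 for Sec61b, which did not pass.

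The folding chaperones and their helpers moved most: all 9 rose, with a median log2 difference of 1.53. Creld2 (ENSMUSG00000023272), an ER protein of the disulfide isomerase type that is induced by ER stress, had 36.6 and 22.9 FPKM in normal liver, 129 and 175 in AAV-Ctrl livers, and 92.3 and 73.8 in AAV-shPhpt1. The 3 groups did not overlap, with AAV-Ctrl highest and normal lowest. AAV-Ctrl was 5.10-fold above normal liver, a log2 difference of 2.33 ± 0.265 (SE, limma adjusted p = 0.0131). Its promoter, shown for the 250 bases before the start because it belongs to that largest fold, holds the element in capitals and, upstream of it, a further CCACG on the opposite strand.
Creld2, chr15:88819396-88819645, plus strand: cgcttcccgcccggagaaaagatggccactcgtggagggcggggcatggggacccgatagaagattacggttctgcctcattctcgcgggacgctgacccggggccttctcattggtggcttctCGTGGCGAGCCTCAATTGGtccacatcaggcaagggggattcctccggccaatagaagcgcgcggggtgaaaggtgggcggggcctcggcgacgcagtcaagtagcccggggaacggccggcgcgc

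Hspa5 (BiP), the central Hsp70 chaperone of the ER and the protein that holds the sensors inactive, lies on chromosome 2 from 34771970 to 34777547 (GENCODE M21, GRCm38, as for the other gene positions). It had 516 and 478 FPKM in normal liver, 1137 and 1822 in AAV-Ctrl livers, and 1251 and 1038 in AAV-shPhpt1. All 4 libraries from livers given CCl4 exceeded both normal ones, while the AAV-Ctrl replicates were 1.60-fold apart and overlapped with the AAV-shPhpt1 values. AAV-Ctrl was 2.98-fold above normal (log2 1.53 ± 0.259, limma adjusted p = 0.0209). Hyou1, the large ER chaperone that exchanges the nucleotide on BiP, had 64.4 and 65.5 FPKM in normal liver, 166 and 239 in AAV-Ctrl livers, and 132 and 169 in AAV-shPhpt1. It was 3.12-fold higher in AAV-Ctrl, with a log2 difference of 1.60 ± 0.211 (limma adjusted p = 0.0151). Manf, a small secreted ER protein that binds BiP, went from 60.9 and 55.5 FPKM to 154 and 220 in AAV-Ctrl, a 3.21-fold rise (limma adjusted p = 0.0133), and had 144 and 138 in AAV-shPhpt1. For Hyou1 as for Manf, every library from livers given CCl4 lay above both normal ones.

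Hsp90b1 (GRP94), the ER form of Hsp90, had 354 and 288 FPKM in normal liver, 698 and 908 in AAV-Ctrl livers, and 643 and 541 in AAV-shPhpt1, and was 2.5-fold higher in AAV-Ctrl (limma adjusted p = 0.0182). The J-domain partners of BiP also rose: Dnajb9 2.61-fold, Dnajc3 2.09-fold and Dnajb11 1.81-fold, with limma adjusted p from 0.0191 to 0.0394. Dnajb9 was also the member with the widest gap between the AAV-Ctrl replicates, 67.2 against 121 FPKM. Sdf2l1, a partner of Dnajb11 in the ER, had 59.1 and 25.5 FPKM in normal liver and 114 and 145 in AAV-Ctrl. Its 3.07-fold rise (limma adjusted p = 0.0309) was measured against normal replicates that themselves were 2.32-fold apart.

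**Figure D2:**
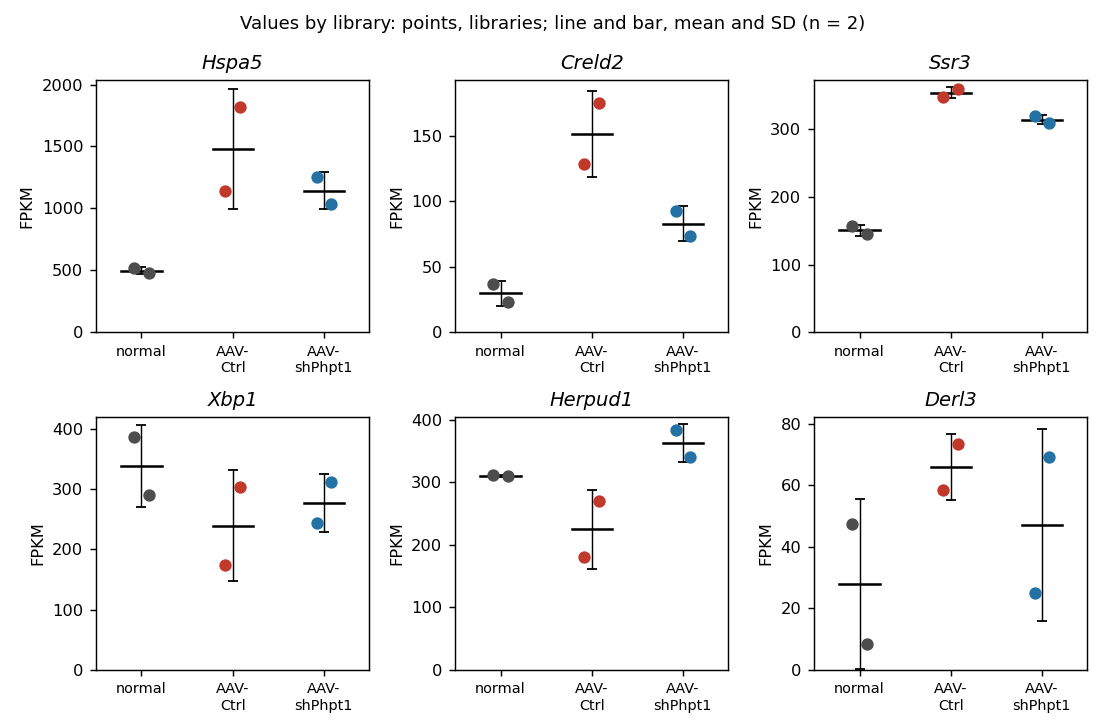
FPKM of 6 genes by library in normal, AAV-Ctrl and AAV-shPhpt1 livers, on axes that start at 0. Points are libraries, and the line and bar are the mean and SD of 2. Hspa5, Creld2 and Ssr3 are lowest in both normal livers, Xbp1 overlaps between groups, Herpud1 is lowest in AAV-Ctrl, and Derl3 has 1 low normal library.

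Of the lectin chaperones and disulfide isomerases 5 of 6 rose, with a median log2 difference of 0.82. Pdia4 had 203 and 143 FPKM in normal liver, 401 and 515 in AAV-Ctrl livers and 323 and 336 in AAV-shPhpt1, a 2.65-fold rise in AAV-Ctrl with a log2 difference of 1.41 ± 0.215 (limma adjusted p = 0.0176). Pdia6 rose 2.17-fold and Pdia3, the isomerase that works with the lectin chaperones, 1.85-fold. The abundant P4hb, also a subunit of the collagen prolyl hydroxylase, rose 1.62-fold, from 1224 and 1058 to 1967 and 1737 FPKM, and was close to the threshold (limma adjusted p = 0.0474). Canx (calnexin), the membrane-bound lectin that holds newly made glycoproteins, had almost equal normal levels of 197 and 196 FPKM and rose to 312 and 356. Calr, its soluble counterpart, did not pass (log2 0.67 ± 0.241, limma adjusted p = 0.0905). It had 1321 and 950.5 FPKM in normal liver, 1726 and 1832 in AAV-Ctrl livers, and 1221 and 1578 in AAV-shPhpt1. AAV-Ctrl lay above both normal livers and AAV-shPhpt1 overlapped with them.

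Among the sensors and Xbp1, 1 of 4 rose. Atf6, the sensor that becomes a transcription factor when cut, had 16.0 and 17.2 FPKM in normal liver, 25.7 and 27.4 in AAV-Ctrl livers, and 27.8 and 22.6 in AAV-shPhpt1, a 1.60-fold rise in AAV-Ctrl (limma adjusted p = 0.0356). Eif2ak3 (PERK), the kinase that slows translation, had 5.85 and 9.20 FPKM in normal liver against 10.9 and 16.3, without overlap but not past the threshold (limma adjusted p = 0.0788). Ern1 (IRE1), which splices Xbp1 mRNA, had 42.9 and 41.4 FPKM in normal liver against 37.6 and 53.6 in AAV-Ctrl, values that overlapped (log2 0.09 ± 0.244, limma adjusted p = 0.795). The sign of the Ern1 difference turned negative with equal medians (-0.36) and with quantile normalization (-0.15).

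Xbp1 (chromosome 11, 5520659 to 5525893) did not pass the test in any comparison. It had 387 and 290 FPKM in normal liver, 175 and 304 in AAV-Ctrl livers, and 244 and 312 in AAV-shPhpt1. The groups overlapped, and the log2 difference between AAV-Ctrl and normal was -0.54 ± 0.300 (limma adjusted p = 0.219). The value is for the whole gene, so spliced and unspliced mRNA cannot be told apart. Set against the level of Hspa5 in the same library, Xbp1 stood at 0.749 and 0.607 in normal liver, 0.154 and 0.167 in AAV-Ctrl livers, and 0.195 and 0.300 in AAV-shPhpt1. All 4 ratios in livers given CCl4 were below both normal ratios, which is given as a description without a test. Hspa5 itself was 2.98-fold above normal in AAV-Ctrl and 2.30-fold in AAV-shPhpt1, so a gene of unchanged level would also fall on this scale.

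Of 7 genes of ER-associated degradation 4 rose, with a median log2 difference of 0.72. Syvn1 (HRD1), the ubiquitin ligase of the main retrotranslocation complex, had 29.4 and 33.8 FPKM in normal liver, 56.1 and 86.8 in AAV-Ctrl livers, and 56.0 and 73.6 in AAV-shPhpt1, a 2.26-fold rise in AAV-Ctrl (limma adjusted p = 0.0309). Sel1l, which holds Syvn1 stable, rose 1.76-fold (limma adjusted p = 0.0217), Derl1, a channel component, 1.65-fold (limma adjusted p = 0.0245), and Edem1, a lectin that marks misfolded glycoproteins, 1.59-fold (limma adjusted p = 0.0331). Derl2, a relative of Derl1, had 56.8 and 74.2 FPKM in normal liver against 63.8 and 69.2 in AAV-Ctrl, an overlap with a log2 difference of 0.03 (limma adjusted p = 0.896). With equal medians the difference of Derl2 was -0.42.

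Derl3 (chromosome 10, 75893413 to 75895941), the derlin of secretory cells, had the widest gap between replicates of the 35 genes. It had 47.4 and 8.35 FPKM in normal liver, 58.4 and 73.5 in AAV-Ctrl livers, and 25.1 and 69.2 in AAV-shPhpt1. Its normal replicates were 5.68-fold apart and its AAV-shPhpt1 replicates 2.76-fold apart. AAV-Ctrl exceeded normal 2.36-fold on average, but the log2 difference of 1.64 had an SE of 0.799 (limma adjusted p = 0.169).

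Herpud1 (chromosome 8, 94386438 to 94395377), a membrane protein of the Syvn1 complex, had its lowest levels in AAV-Ctrl. It had 311 and 309 FPKM in normal liver, 180 and 270 in AAV-Ctrl livers, and 384 and 341 in AAV-shPhpt1. No group overlapped another, and AAV-shPhpt1 was highest. The log2 difference between AAV-Ctrl and normal was -0.49 ± 0.210 and did not pass (limma adjusted p = 0.131), and with equal medians it was -0.94 and passed (limma adjusted p = 0.0435). Relative to Hspa5 the level of Herpud1 was 0.603 and 0.647 in normal liver, 0.159 and 0.148 in AAV-Ctrl livers, and 0.307 and 0.328 in AAV-shPhpt1. These ratios carry the rise of Hspa5: in AAV-shPhpt1 they were below normal although the FPKM of Herpud1 was above it. Its window holds the second type of ER stress element, ATTGG followed after 1 base by CCACG. It is shown because Herpud1, of the genes with a window, is the member with that site before its start and was lowest in AAV-Ctrl.
Herpud1, chr8:94386357-94386407, plus strand: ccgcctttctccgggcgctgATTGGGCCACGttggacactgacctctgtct
That type was in 0.0365% of all windows and, among the 29 genes with a window, also in Dnajb11, where it lies after the start site.

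Of the translocon and its associates 6 of 7 rose, with a median log2 difference of 0.95. Sec61a1, which forms the pore, had 143 and 136 FPKM in normal liver, 261 and 336 in AAV-Ctrl livers, and 263 and 274 in AAV-shPhpt1, a 2.14-fold rise in AAV-Ctrl (log2 1.08 ± 0.159, limma adjusted p = 0.0168). The small subunits Sec61b and Sec61g rose 1.64-fold and 1.71-fold. The genes Ssr1 to Ssr4 encode the translocon-associated protein complex, which helps some signal peptides to enter the channel.

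Ssr3, the gamma subunit of that complex, had 157 and 145 FPKM in normal liver, 348 and 359 in AAV-Ctrl livers, and 319 and 309 in AAV-shPhpt1. The 3 groups were apart and the replicates of each within 1.08-fold, which gave the smallest limma adjusted p of the 35 genes (0.0105, log2 1.23 ± 0.126). Ssr1, the alpha subunit, had 31.4 and 31.5 FPKM in normal liver, 68.0 and 78.4 in AAV-Ctrl livers, and 59.9 and 53.4 in AAV-shPhpt1, 2.33-fold higher in AAV-Ctrl (log2 1.19 ± 0.134, limma adjusted p = 0.0130). Ssr2 (beta) rose 1.95-fold (limma adjusted p = 0.0232). Ssr4 (delta) had 70.4 and 73.0 FPKM against 90.2 and 101, 1.33-fold higher without overlap and not past the threshold (limma adjusted p = 0.0597). With equal medians its log2 difference was -0.04. As a share of Ssr3, Ssr1 stayed between 0.173 and 0.218 in all 6 libraries, while Ssr4 was 0.45 and 0.505 in normal liver and between 0.260 and 0.292 in the 4 libraries from livers given CCl4.

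Of the signal peptidase subunits that accompany the enzyme's catalytic part, Spcs2 rose 2.12-fold, from 73.3 and 58.1 FPKM to 124 and 155 (limma adjusted p = 0.0207). Spcs1 had 59.5 and 62.5 FPKM against 79.4 and 95.1, 1.43-fold higher without overlap, and did not pass (limma adjusted p = 0.0529). Up to 16.3% of the exonic bases of Spcs1 lie opposite to another gene, Glt8d1, the largest overlap among the 35, and the counting is not stated to use strand.

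**Figure D3:**
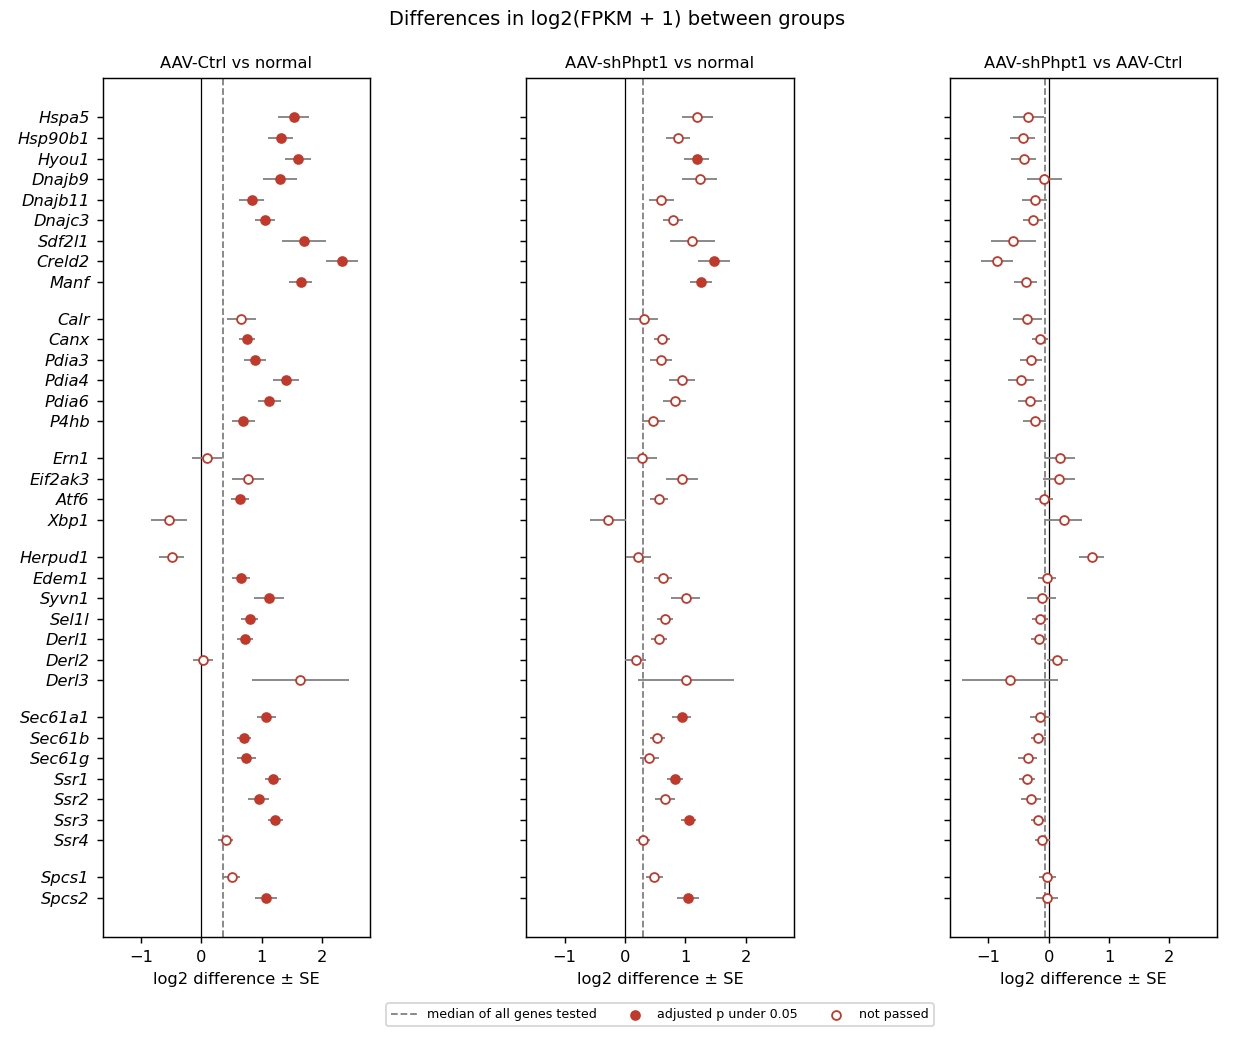
Difference in log2(FPKM + 1) with its SE for the 35 genes in the 3 comparisons, one panel each, ordered by role. Filled points passed a limma adjusted p under 0.05 and the dashed line is the median of all genes tested. There are 26 filled points for AAV-Ctrl against normal, 7 for AAV-shPhpt1 against normal and 0 between the groups given CCl4.

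Replicates set the limits of these values. Of the 35 genes 24 were higher in normal replicate 1 than in replicate 2, and only 3 were higher in AAV-Ctrl replicate 1 than in replicate 2. The median gap between replicates was 1.16-fold in normal liver, 1.25-fold in AAV-Ctrl and 1.13-fold in AAV-shPhpt1. Gaps above 1.5-fold were found for Sdf2l1, Creld2, Eif2ak3 and Derl3 in normal liver, for Hspa5, Dnajb9, Xbp1 and Syvn1 in AAV-Ctrl, and for Ern1 and Derl3 in AAV-shPhpt1.

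Markers of other cells also differed between the groups. The summed level of 10 macrophage markers was 132 and 102 FPKM in normal liver, 774 and 709 in AAV-Ctrl livers, and 432 and 128 in AAV-shPhpt1. The 10 markers of stellate cells and fibroblasts summed to 48.5 and 62.3, 493 and 427, and 251 and 74.2 FPKM in the same order. In AAV-shPhpt1 replicate 2 the macrophage sum lay between the normal ones and the fibroblast sum above both. Single macrophage markers there were far from normal in both directions. Cd14 had 23.8 FPKM against 0.740 and 0.638 in normal liver, and Clec4f 4.30 against 45.3 and 40.4. This is 1 library, and the cholangiocyte sum of AAV-shPhpt1 replicate 2, 93.1 FPKM, was above both normal ones. Sums of 7 endothelial markers were 15.6 and 32.5 FPKM in normal liver, 66.5 and 51.1 in AAV-Ctrl livers, and 46.6 and 16.1 in AAV-shPhpt1, and those of 5 cholangiocyte markers 20.1 and 25.2, 58.6 and 120, and 75.9 and 93.1. The part of these cells in the ER results was not tested.

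Plasma cells and pancreatic acinar cells, which secrete heavily and use the same machinery, were looked at for the same reason. Of their genes, Jchain had 1.82 and 1.41 FPKM in normal liver, 2.08 and 0.645 in AAV-Ctrl livers, and 23.9 and 1.99 in AAV-shPhpt1. The library with the high Jchain, AAV-shPhpt1 replicate 1, had the lower Derl3 of its group. Derl3 was also far apart in the normal livers (47.4 and 8.35 FPKM), where Jchain was similar. A link between the 2 genes was not tested. All 10 plasma and B cell markers summed to 167 to 191 FPKM in normal liver, 205 to 259 in AAV-Ctrl and 210 to 473 in AAV-shPhpt1, and hepatocytes also express 1 of them, Sdc1. The 8 markers of T and NK cells summed to between 4.68 and 26.7 FPKM in all libraries. Of 10 acinar markers 7 were at 0 in both normal livers, 3 in both AAV-Ctrl and 8 in both AAV-shPhpt1, with Prss2, Cela3b and Amy2a5 at 0 in all 6, and their sum, nearly all of it Cela1, was 38.0 and 38.6 FPKM in normal liver, 22.02 and 17.6 in AAV-Ctrl livers and 8.69 and 9.499 in AAV-shPhpt1.

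AAV-shPhpt1 against AAV-Ctrl asks whether the hairpin changed these genes in livers given CCl4. None of the 35 passed, and of all genes 0% were called higher and 0% lower by limma. At an unadjusted p under 0.05 there were 3 of the 35 and 1146 of all genes, and voom on recovered reads also called 0. The median log2 difference of the 35 was -0.17, against -0.07 for all genes. AAV-shPhpt1 lay below AAV-Ctrl without overlap for 18 of the 35 and above it for 1, where 26.2% of all genes lay below and 11.8% above. With equal medians 10 of the 35 differences were above 0, and their median was -0.07.

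The 3 genes at an unadjusted p under 0.05 were Creld2, Herpud1 and Ssr1. For Creld2, whose values above fell between the other groups, the difference was -0.85 ± 0.265 on the log2 scale (limma adjusted p = 0.512). Herpud1 was the member above AAV-Ctrl without overlap, 1.61-fold, with a log2 difference of 0.71 ± 0.210 (limma adjusted p = 0.505). Ssr1 was lower by a smaller step, -0.36 ± 0.134 (limma adjusted p = 0.553). For Sdf2l1, with 85.9 and 85.2 FPKM in AAV-shPhpt1 against 114 and 145, the log2 difference was -0.58 (limma adjusted p = 0.732). For Hspa5 the groups overlapped (log2 -0.34, limma adjusted p = 0.798), and without AAV-Ctrl replicate 2 its difference was 0.003. For Xbp1 they overlapped too (log2 0.26, limma adjusted p = 0.893), and without AAV-Ctrl replicate 1 the sign turned (-0.14).

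AAV-shPhpt1 against normal liver asks how far the ER genes stood above untreated liver when the hairpin was present, and shares its normal libraries with the first comparison. Here 7 of the 35 rose and 0 fell, where 3.26% of all genes were called higher and 1.07% lower. They were the chaperones Hyou1, Creld2 and Manf, the translocon genes Sec61a1, Ssr1 and Ssr3, and the signal peptidase subunit Spcs2. AAV-shPhpt1 lay above normal liver without overlap for 30 of the 35 and below it for 0, where 52.2% and 12.5% of all genes did. The median log2 difference of the 35 was 0.66, against 0.30 for all genes.

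The 7 called genes can be set beside the first comparison. For Creld2 the log2 difference from normal was 1.48 in AAV-shPhpt1 (limma adjusted p = 0.0418) and 2.33 in AAV-Ctrl. Manf stood at 1.26 (limma adjusted p = 0.0305) against 1.65, and Hyou1 at 1.19 (limma adjusted p = 0.0414) against 1.60. For the translocon genes the values were 1.05 against 1.23 for Ssr3 (limma adjusted p = 0.0213), 0.94 against 1.08 for Sec61a1 (limma adjusted p = 0.0391), and 0.83 against 1.19 for Ssr1 (limma adjusted p = 0.0370). Spcs2 stood at 1.05 against 1.07 (limma adjusted p = 0.0393). Hspa5 had a log2 difference of 1.197 and narrowly did not pass (limma adjusted p = 0.0563). Xbp1 (-0.28, limma adjusted p = 0.521) and Herpud1 (0.22, limma adjusted p = 0.472) did not pass. Without AAV-shPhpt1 replicate 1, without either normal library or without AAV-Ctrl replicate 1 the count of 7 was 0, without AAV-Ctrl replicate 2 it was 1, and with equal medians it was 0.

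Other genes of the same pathways, taken from 6 lists written from textbook knowledge, were read beside the 35. These lists, like the 35 genes, were chosen with earlier results of these data known. Of 100 tested, 44 rose and 0 fell in AAV-Ctrl against normal liver, 13 rose in AAV-shPhpt1 against normal, and 0 passed between the groups given CCl4. Of all genes tested 18.2% were called higher in the first comparison and 3.26% in the second. The oligosaccharyltransferase, which attaches the sugar tree to incoming proteins at the translocon, had the highest share, 10 of 12, with Ostc 3.21-fold higher (limma adjusted p = 0.00787), Ost4 3.06-fold and the catalytic subunit Stt3b 2.15-fold. Ostc had 33.1 and 32.1 FPKM in normal liver, 95.2 and 114 in AAV-Ctrl livers, and 83.5 and 74.3 in AAV-shPhpt1. Of 19 translocation partners 9 rose, among them Hspa13, an Hsp70 of the ER membrane (2.72-fold), Srprb, a subunit of the signal recognition particle receptor (2.88-fold), and Sec11c, a catalytic subunit of the signal peptidase (1.95-fold).

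Of 18 disulfide and proline folding enzymes 6 rose, with Fkbp11, a prolyl isomerase of secretory cells, 3.501-fold higher (limma adjusted p = 0.00927), Ero1l, the oxidase that recharges P4hb, 2.09-fold and Erp29 1.97-fold. Of 13 genes of glycan trimming and glycoprotein quality control 8 rose, with Uggt1, which tests the fold of glycoproteins, 2.05-fold higher, its relative Uggt2 2.61-fold and the cargo receptor subunit Mcfd2 2.04-fold. Of 23 further degradation genes 5 rose, a share near the 18.2% of all genes, and their median log2 difference of 0.29, the lowest of the 6 lists, was below the all-gene 0.35. Among them the reductase Dnajc10 was 3.40-fold higher, with 20.9 and 19.3 FPKM in normal liver, 57.1 and 79.8 in AAV-Ctrl livers, and 70.9 and 56.3 in AAV-shPhpt1. Ube2g2, a ubiquitin-conjugating enzyme, rose 1.97-fold and Selenos 1.83-fold.

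Of 15 sensor partners and genes of the PERK branch 6 rose, and they held the largest folds of any list. Nupr1, a stress-induced chromatin protein, had 0.953 and 0.856 FPKM in normal liver, 42.0 and 55.7 in AAV-Ctrl livers, and 45.3 and 139 in AAV-shPhpt1, 54.1-fold higher in AAV-Ctrl (limma adjusted p = 0.0106). Asns, asparagine synthetase and an ATF4 target, had 3.40 and 5.86 FPKM in normal liver, 29.5 and 44.5 in AAV-Ctrl livers, and 39.9 and 14.1 in AAV-shPhpt1 (7.996-fold, limma adjusted p = 0.0235). The pseudokinase gene Trib3 was 3.57-fold higher (limma adjusted p = 0.0274). All 3 were above normal in each of the 4 libraries from livers given CCl4.

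The promoter element and the differences were then set side by side. The 9 genes with the ER stress element were Hspa5, Hsp90b1, Calr, Canx, Pdia6, Dnajc3, Creld2, Derl3 and Syvn1, and Hsp90b1 held 2 copies. They span chaperones, lectins, an isomerase and degradation genes, and hold no gene of the translocon or signal peptidase. The translocon genes Sec61a1 and Ssr2 had no window and were not searched. Between AAV-Ctrl and normal liver their log2 differences ran from 0.67 to 2.33 with a median of 1.13, and 7 of 9 rose. The 20 genes whose windows lacked those letters ran from -0.54 to 1.70 with a median of 0.76, and 13 rose. The 6 genes without a window (Hyou1, Manf, Ssr2, Derl1, Atf6 and Sec61a1) had a median of 1.02, and all 6 rose. The ranges overlap widely, and the split is a description without a test.

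**Figure D4:**
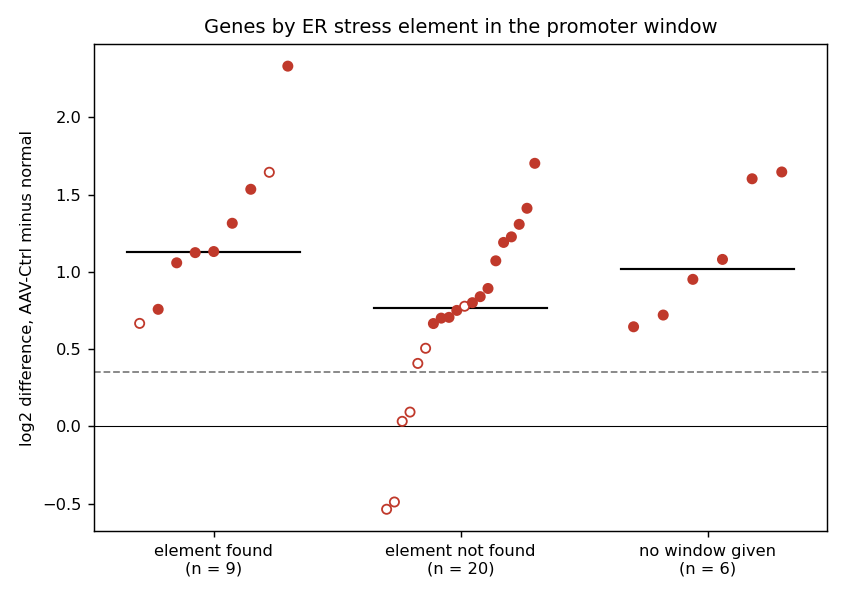
Difference in log2(FPKM + 1) between AAV-Ctrl and normal liver for the 35 genes, by whether the ER stress element was found in the promoter window. Each point is a gene, filled where its limma adjusted p was under 0.05. The solid lines are the medians of 1.13, 0.76 and 1.02, and the dashed line is the all-gene median of 0.35.

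Outside the 35, the element was in the windows of 28 other genes, of which 10 were found by symbol among the genes tested. Of these, 5 were called higher and 0 lower in AAV-Ctrl against normal liver, and the median log2 difference of the 10 was 1.13, where 18.2% of all genes were called higher with a median of 0.35. The 5 were Acnat2 (4.12), Spats2l (2.81), Zfp57 (2.40), Alg12 (1.32), the mannosyltransferase of glycan assembly, and Hnrnpa3 (0.94). CCACG alone, on either strand, was in the windows of 23 of the 29 genes (79.3%) and of 35.5% of all genes with a window (32.8% of all windows). The core of the unfolded protein response element, TGACGTG, was in 2.01% of all windows. Among the 29 genes with a window it was in Hspa5 alone, 157 bases before its RefSeq start and upstream of the element shown above.
Hspa5, chr2:34771928-34771944, plus strand: agcaaTGACGTGagttg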

How the data were processed

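Gene values were taken from the table the authors deposited for the series, in which all 6 libraries have a column and 0 columns of values matched no sample. No unit is named in its header. FPKM was taken as the unit of the deposited values because, multiplied by the rounded mean length of a gene's GENCODE M21 transcripts and by a depth per library, 96.3% to 96.6% of those above 0 gave whole reads within 0.05 reads. These recovered reads gave the depth per library and served voom as an alternative. The submitters' processing notes list mm8, mm9 and Bowtie 0.12.2, with no word on which applied to this table. Total RNA went into a TruSeq kit, per the labels' protocols. Of 55222 entries 54532 carry an Ensembl identifier, 54495 of them in GENCODE M21 (GRCm38), which gave positions, and 690 are unnamed loci.

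Where any group's mean reached 1 FPKM the gene was kept, and these 13517 genes were fitted as log2(FPKM + 1) with limma 3.58.1 (limma-trend, R 4.3.3) in 1 fit over the 6 libraries, with 3 comparisons, two-sided, and Benjamini-Hochberg adjustment over all genes. Genes with an adjusted p under 0.05 were called. Folds are ratios of mean FPKM, log2 differences are on the log2(FPKM + 1) scale, which understates changes of low genes, and the SEs are limma's. A count model was provided for in case of whole counts and was not needed. Replicates differed by a chi-square per gene of 41.6 to 82.2, so no library repeats another. The fit was run on simulated counts with a fixed spread, few changed genes and no shift of all genes. Those settings differ from the data, so that run does not vouch for the calls made here. The genes and lists were chosen with earlier results of these data known. All 35 members are named, and of each further list at most the 3 called genes with the largest log2 difference. Promoter sequences are RefSeq's. A description of protein C termini that had been intended was not made. Alternatives changed the pseudocount, the filter, the scaling, the model and the libraries used.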

Additional observations from a re-analysis of the deposited data

How the results depend on the processing

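The count of 26 members called higher in AAV-Ctrl against normal was 26 with a pseudocount of 0.1, a filter at 5 FPKM, voom or only the 4 libraries compared. It was 24 with the replicate number as a block, 18 with quantile normalization, 5 with median centring and 2 with no filter on low values, and ranged from 0 to 26 when 1 library was left out. Median centring also called 1 member lower. The count of 7 in AAV-shPhpt1 against normal was 8 with a pseudocount of 0.1, 11 with a filter at 5 FPKM, 4 with the replicate block, 3 with only the 4 libraries compared, 2 with voom, 1 with quantile normalization, 0 with median centring or no filter, and 0 to 8 when 1 library was left out. The cause was not tested, except that leaving out a compared library leaves 1 sample in its group, which is then assumed to vary like the others. Between AAV-shPhpt1 and AAV-Ctrl 0 members were called under every alternative, although without AAV-shPhpt1 replicate 1 39 of all genes were called higher and 338 lower.

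The shared replicate numbers showed little sign of pairing the samples. Each gene's deviation of replicate 1 from its group mean was correlated between groups. These correlations of deviations were 0.073, 0.041 and 0.153, so the replicate block is given here only. Of the 35 members, 3 changed sign under some alternative in AAV-Ctrl against normal, 13 in AAV-shPhpt1 against AAV-Ctrl and 6 in AAV-shPhpt1 against normal, and 0 of the called ones did. In AAV-Ctrl against normal, Ern1 was -0.36 with median centring, -0.15 with quantile normalization and -0.158 to 0.342 with a library left out, Derl2 -0.42, -0.13 and -0.157 to 0.222, and Ssr4 -0.044 with median centring. With a library left out, Hspa5 in AAV-shPhpt1 against AAV-Ctrl ranged from -0.677 to 0.003 and Xbp1 from -0.143 to 0.655. Herpud1 in AAV-shPhpt1 against normal was -0.13 with median centring. Each of the 35 genes had at least 154 reads in every library.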
